A study of Mus musculus with 28 samples.

Results

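Actomyosin contractility genes encode the parts with which a cell pulls: actin filaments, the myosin II motor that slides them, and the proteins that stabilise the filaments or set the activity of the motor. The 10 genes described here were taken by name from the 24015 genes of the count table: Acta2, Tagln, Cald1, Tpm1, Tpm2, Tpm4, Myl9, Myh9, Myh10 and Limch1. They were not picked by a cut on measured values, but they were chosen with earlier results of these data known. Each of the 10 had enough counts to be tested.

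In non-muscle cells, myosin II moves when its regulatory light chain is phosphorylated, by myosin light chain kinase or by the ROCK kinases downstream of RhoA, and tropomyosins and caldesmon on the actin filament decide how well the motor can bind. Acta2 and Tagln are best known from smooth muscle and are transcribed under serum response factor (SRF) with cofactors of the myocardin family. In the embryonic aorta, hemogenic endothelium is a flat endothelium whose cells round up, bend out of the vessel wall and leave it as blood cells, so that both its junctions and its contractile cortex are remodelled.

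RNA was counted in 28 libraries of 100 sorted cells each. All came from mouse embryos of the genotype labelled 23GFP transgenic, with no wild-type group beside them. Endothelial cells (EC) and hemogenic endothelium (HE) were sampled on each of 3 days, E8.5, E9.5 and E10.5. Blood cells were added as pro-HSC/HPC on the second day and as 2 stages, pre-HSC I and II, on the last. Each of the 9 populations had 3 libraries, save E8.5 HE with 4. HPC stands for hematopoietic progenitor cell, and pro-HSC, pre-HSC I and pre-HSC II are the labels' names for stages on the way to the hematopoietic stem cell. The tissue label was AGM+VU for the E10.5 embryos and PAS+VU for the younger ones. The gates of the sort are not given here.

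Totals ran from 16308918 to 31405603 counts per library, and 3 counts corresponded to between 0.108 and 0.188 CPM (counts divided by the scaled library total). The 8 endothelial genes checked, Cdh5 and Kdr among them, had mean levels (log2(CPM + 1)) of 6.52 to 8.63 in each library except those of pre-HSC II, where they lay between 5.003 and 5.48. A set of 4 libraries stood apart by the levels of 10 mesenchyme genes: E9.5 EC replicate 3 (4.203 on the same scale), E10.5 HE replicate 1 (3.71), E10.5 EC replicate 2 (3.51) and pre-HSC I replicate 1 (3.28), against 0.792 to 2.05 in the others. Col1a1, the fibrillar collagen, was at 97.9 CPM in that E9.5 EC library and at 0.374 and 0.475 in the other E9.5 EC libraries. Each result below that rests on these libraries is given with and without them where its call changed, and their part in the levels was otherwise not tested. In pools of cells, fewer cells of a type and less RNA per cell cannot be told apart.

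**Figure D1:**
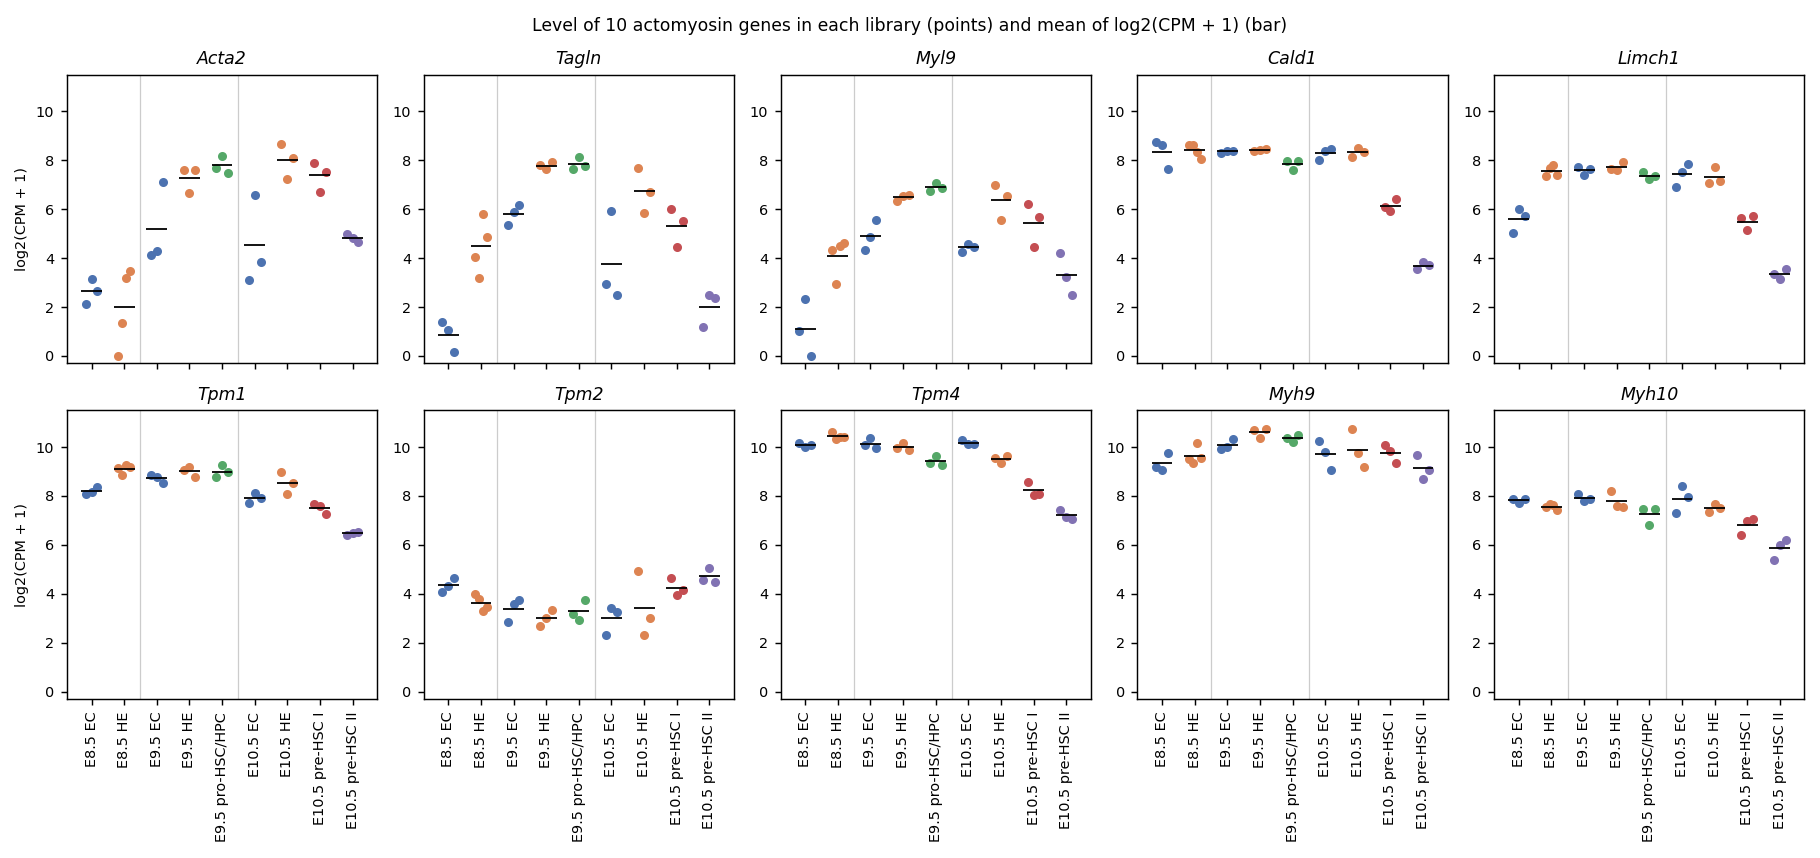
Level of each of the 10 genes in each library, as log2(CPM + 1), with the 9 populations on the horizontal axis. Points are libraries, bars are means over the libraries of a population and grey lines separate the embryonic days. Acta2, Tagln and Myl9 are lowest at E8.5 or in pre-HSC II, Cald1, Limch1, Tpm1, Tpm4 and Myh10 step down from E10.5 HE to pre-HSC I to pre-HSC II, and Myh9 and Tpm2 follow neither course.

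Compared per kilobase of exon (RPKM), the tropomyosin gene Tpm4 gave the most RNA of the 10 genes in each population except pre-HSC II. In E9.5 HE the mean RPKM was 496 ± 52.6 for Tpm4, 211 ± 27.8 for Myh9 and 158 ± 22.2 for Tpm1, and 2.18 ± 0.559 for Tpm2, the lowest (SD, n = 3 libraries, or 4 for E8.5 HE, here and throughout). In E8.5 EC the order below Tpm4 was Tpm1, Myh9 and Cald1, and the last 3 places were held by Acta2 (2.15 ± 0.870 RPKM), Myl9 (1.55 ± 1.92) and Tagln (0.588 ± 0.474). By E9.5 pro-HSC/HPC those 3 genes had RPKM values above that of Cald1, with Tagln at 146 ± 25.2, Myl9 at 109 ± 13.3 and Cald1 at 56.9 ± 7.45. In pre-HSC II, Myh9 was first at 78.96 ± 28.2 RPKM, Tpm4 second at a mean of 71.7 and Limch1 last at 1.43 ± 0.227.

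Acta2 encodes the smooth muscle isoform of alpha-actin (mm9 chromosome 19, 34314826 to 34329863, minus strand, 9 exons). Its order of mean levels ran from E10.5 HE (275 ± 127 CPM) through pro-HSC/HPC (225 ± 58.4), pre-HSC I (175 ± 67.7) and E9.5 HE (162 ± 54.8). Then came E9.5 EC (57.1 ± 68.6), E10.5 EC (38.8 ± 48.9) and pre-HSC II (27.4 ± 3.38), with E8.5 EC (5.52 ± 2.24) and E8.5 HE (4.90 ± 4.86) at the end. Libraries of neighbours in this order overlapped, except between pre-HSC II and E8.5 EC. In 1 of the E8.5 HE libraries no Acta2 read was counted at all. Actc1 was at 0.646 ± 0.555 CPM in E8.5 EC, 16.5 ± 10.9 in E9.5 HE and 56.7 ± 82.4 in E10.5 HE. Acta2 shares long near-identical stretches with the cardiac actin gene Actc1 and the enteric actin gene Actg2, and how reads with several matches were treated is unknown, so that its counts are uncertain to that extent.

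Tagln encodes transgelin, a small protein that binds along actin filaments (chromosome 9, 45737711 to 45744141, minus strand, 5 exons). It covered the widest range of the 10 genes, from 0.932 ± 0.751 CPM in E8.5 EC to 232 ± 40.02 in pro-HSC/HPC, with no E8.5 EC library above 1.61. The mean in HE was 219.6 ± 23.3 CPM at E9.5 and 121 ± 75.6 at E10.5. Lower down came 56.3 ± 15.9 in E9.5 EC, 42.8 ± 20.98 in pre-HSC I, 26.6 ± 20.6 in E8.5 HE, 23.5 ± 31.02 in E10.5 EC and 3.35 ± 1.79 in pre-HSC II. In this order each population overlapped the next. The exons of Tagln share 95 bases with those of Pcsk7 on the other strand. Reads there cannot be assigned, since it is not known whether the counting used strand.

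Myl9 encodes a regulatory light chain of myosin II, the subunit whose phosphorylation switches the motor on (chromosome 2, 156601200 to 156607393, plus strand, 4 exons). Pro-HSC/HPC had the highest mean, 118 ± 14.4 CPM, followed by E10.5 HE (88.6 ± 40.5) and E9.5 HE (88.5 ± 7.60), with overlap between neighbours among these 3 but none between E9.5 HE and the next. The levels below them were 47.9 ± 26.2 CPM in pre-HSC I, 30.8 ± 13.6 in E9.5 EC, 20.7 ± 2.39 in E10.5 EC, 17.6 ± 7.52 in E8.5 HE and 10.2 ± 6.68 in pre-HSC II, again overlapping. E8.5 EC stood apart at 1.68 ± 2.08 CPM, with no Myl9 count in replicate 3.

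Promoter sequences were at hand from RefSeq (GRCm38.p6) for 9 of the 10 members, all but Tagln. They were searched on both strands, over the 250 bases before the start of transcription, for the CArG box that SRF binds, a pair of C and a pair of G around a stretch of A and T. The promoters of Myl9 and Acta2 are shown because they were the only ones among the members with a CArG box, exact or with 1 inner letter changed, and because these genes shared low levels at E8.5. Capitals mark the boxes.
Myl9, chr2:156775214-156775463, plus strand: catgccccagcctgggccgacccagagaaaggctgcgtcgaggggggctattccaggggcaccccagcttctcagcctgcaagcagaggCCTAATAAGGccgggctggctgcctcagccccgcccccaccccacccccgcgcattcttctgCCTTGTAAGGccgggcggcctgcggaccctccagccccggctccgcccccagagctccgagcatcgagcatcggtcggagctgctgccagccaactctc
Acta2, chr19:34255374-34255623, minus strand: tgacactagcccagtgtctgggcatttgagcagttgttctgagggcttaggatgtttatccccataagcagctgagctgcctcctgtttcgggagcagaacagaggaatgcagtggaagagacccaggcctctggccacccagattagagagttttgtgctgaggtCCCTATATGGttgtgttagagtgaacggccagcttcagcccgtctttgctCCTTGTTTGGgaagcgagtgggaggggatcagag
In Myl9 the box CCTAATAAGG is exact and begins 161 bases before the start, and CCTTGTAAGG, 99 bases before it, has 1 inner letter changed. In Acta2 both boxes, CCCTATATGG at 84 bases and CCTTGTTTGG at 34 bases before the start, have 1 inner letter changed. An exact box lay in 1.47% of 32851 mouse promoters of this length, a box with 1 changed letter in 7.24%, and at least 2 boxes of either kind in 0.67%. The letters CATTCC, bound by TEAD factors, were found in the promoters of Cald1, Tpm1, Myh10 and Acta2 and in 12.6% of all promoters, and TGTGGT, bound by RUNX factors, in none of the members' promoters and in 4614 of all 32851. These matches describe the letters in the window and carry no measurement of binding.

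Myh9 encodes the motor of non-muscle myosin IIA (chromosome 15, 77591015 to 77672605, minus strand, 41 exons). Myh10 encodes that of non-muscle myosin IIB (chromosome 11, 68505417 to 68630126, plus strand, 41 exons). Myh9 varied least of the 10 genes, with a 2.67-fold ratio between its highest mean, 1570.3 ± 206 CPM in E9.5 HE, and its lowest, 587 ± 209.8 in pre-HSC II. Each neighbour in its order overlapped the next. Myh10 was between 179.9 ± 20.005 CPM (E10.5 HE) and 248 ± 93.2 (E10.5 EC) in the EC and HE populations. Pro-HSC/HPC had 155 ± 36.6 CPM, pre-HSC I had 114 ± 26.8 and pre-HSC II had 59.2 ± 16.4. Of neighbours in the order of Myh10, pre-HSC I and pre-HSC II did not overlap, and the others did.

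Tropomyosins are coiled coils that lie end to end along the actin filament. Tpm4 (chromosome 8, 74659191 to 74677028, plus strand, 8 exons) was at 1385 ± 116 CPM in E8.5 HE, between 1033 ± 109.5 (E9.5 HE) and 1163 ± 76.01 (E10.5 EC) in E9.5 HE and the 3 EC populations, 738 ± 79.01 in E10.5 HE and 684 ± 92.7 in pro-HSC/HPC. Pre-HSC I reached 304 ± 63.8 CPM and pre-HSC II 149 ± 19.8, where neither overlapped its neighbour in the order. Tpm1 (chromosome 9, 66870400 to 66897020, minus strand, 15 exons) ranged from 552 ± 65.8 CPM in E8.5 HE to 87.7 ± 3.73 in pre-HSC II. Tpm2 (chromosome 4, 43526598 to 43536426, minus strand, 10 exons) was the least abundant member per length in 6 of the 9 populations, at 7.25 ± 1.86 CPM in E9.5 HE and 25.6 ± 6.17 in pre-HSC II, its highest mean.

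Cald1 encodes caldesmon, which binds actin, tropomyosin and myosin and restrains the motor (chromosome 6, 34659444 to 34725469, plus strand, 12 exons). It held a level of 312 ± 48.5 CPM (E10.5 EC) to 341 ± 12.9 (E9.5 HE) in the 6 EC and HE populations, all of which overlapped. Pro-HSC/HPC had 229 ± 30.1 CPM, pre-HSC I 70.6 ± 12.96 and pre-HSC II 11.9 ± 1.29, none of which overlapped its neighbours. Limch1 encodes a protein with LIM and calponin homology domains that promotes the activity of non-muscle myosin II (chromosome 5, 67137079 to 67448398, plus strand, 27 exons). It lay between 162 ± 41.3 CPM (E10.5 HE) and 211 ± 29.8 (E9.5 HE) in pro-HSC/HPC and the EC and HE populations other than E8.5 EC, at 48.5 ± 15.4 in E8.5 EC, 44.6 ± 9.07 in pre-HSC I, and lowest with 9.24 ± 1.47 in pre-HSC II.

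The first question was how endothelium about to form blood differs from other endothelium of its day. At E8.5, 4 of the 10 members were higher in HE and none lower by edgeR's quasi-likelihood test (Benjamini-Hochberg adjusted p under 0.05 over 15238 genes), where 6.81% of all genes tested were called in either direction, 5.08% as higher and 1.73% as lower in HE. The 4 were Tagln, Myl9, Limch1 and Tpm1, from 4 roles: filament binding, light chain, motor regulation and tropomyosin. The median log2 difference was 0.34 over the 10 members and 0 over all genes tested, and HE and EC libraries did not overlap in 7 of the 10, as in 15.8% of all genes.

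Tagln was at 1.61, 1.06 and 0.125 CPM in the E8.5 EC libraries and at 15.4, 8.14, 55.05 and 27.8 in the E8.5 HE libraries (log2 difference 4.75 ± 0.86 SE, edgeR adjusted p = 7.9e-04). Every HE library lay above every EC library, and the lowest EC value was under the level of 3 counts. Myl9 was at 1.05, 4.003 and 0 CPM in EC and 18.9, 6.68, 21.4 and 23.5 in HE (log2 difference 3.32 ± 0.68 SE, edgeR adjusted p = 0.0027). The sizes of both differences depended on single libraries: without EC replicate 1 that of Tagln was 5.35 and without HE replicate 3 4.12, and without EC replicate 2 that of Myl9 was 4.91, with every call kept. Myl9 lost its call when the fit held only these 2 populations (adjusted p = 0.15).

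Limch1 was at 31.99, 62.4 and 51.1 CPM in E8.5 EC and 164, 204, 221 and 167 in E8.5 HE, a 3.89-fold difference (log2 difference 1.96 ± 0.25 SE, edgeR adjusted p = 1.2e-05). Tpm1 was at 271, 289 and 327 CPM in EC and 561, 458, 612 and 576 in HE, 1.87-fold (log2 difference 0.90 ± 0.20 SE, edgeR adjusted p = 0.0053). In both genes the EC and HE libraries were fully separate. Tpm4 also had non-overlapping libraries, 1157, 1012 and 1079.6 CPM in EC and 1547, 1276, 1344 and 1374 in HE, but did not pass the test (log2 difference 0.36 ± 0.17 SE, edgeR adjusted p = 0.21). With the replicate number as a block, since same-numbered libraries deviate together in this comparison, Tpm4 did pass (0.36, adjusted p = 0.015), making 5 members, while the calls among all genes went from 1038 to 2193.

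Acta2 did not pass the test between E8.5 HE and EC (-0.19 ± 0.87 SE on the log2 scale, adjusted p = 0.95), with 3.38, 7.85 and 5.33 CPM in EC and 0, 1.57, 8.03 and 9.98 in HE. Cald1 differed by 0.01 ± 0.21 SE, Myh9 by 0.32 ± 0.31 SE, Myh10 by -0.26 ± 0.24 SE and Tpm2 by -0.76 ± 0.46 SE, none past the threshold. The defining smooth muscle genes outside the members were low in both: Myh11, the smooth muscle myosin heavy chain, was at 0 to 0.125 CPM in E8.5 EC and 0 to 1.43 in E8.5 HE. Cnn1, a calponin of smooth muscle, was at 0 to 1.09 in EC and 0 to 1.79 in HE. The enteric actin Actg2 was at 23.1, 19.5 and 18.99 CPM in EC and 7.96, 14.2, 8.41 and 12.7 in HE, without a call. The pericyte gene Rgs5 was at 20.02, 16.9 and 33.1 CPM in EC and 2.41, 4.80, 0 and 7.25 in HE, also without one. Of 9 smooth muscle genes tested, Smtn (smoothelin) alone passed, as higher in HE (log2 difference 1.06 ± 0.30 SE, edgeR adjusted p = 0.027). The summed level of the whole list of 10 ran from 69.9 to 98.9 CPM in EC, and in HE from 81.9 to 139.6. Among the 8 endothelial genes, 5 passed as higher in HE too, with a mean level of 7.80 in HE and 6.74 in EC (log2(CPM + 1)). The part of that difference in the members' values was not tested.

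**Figure D2:**
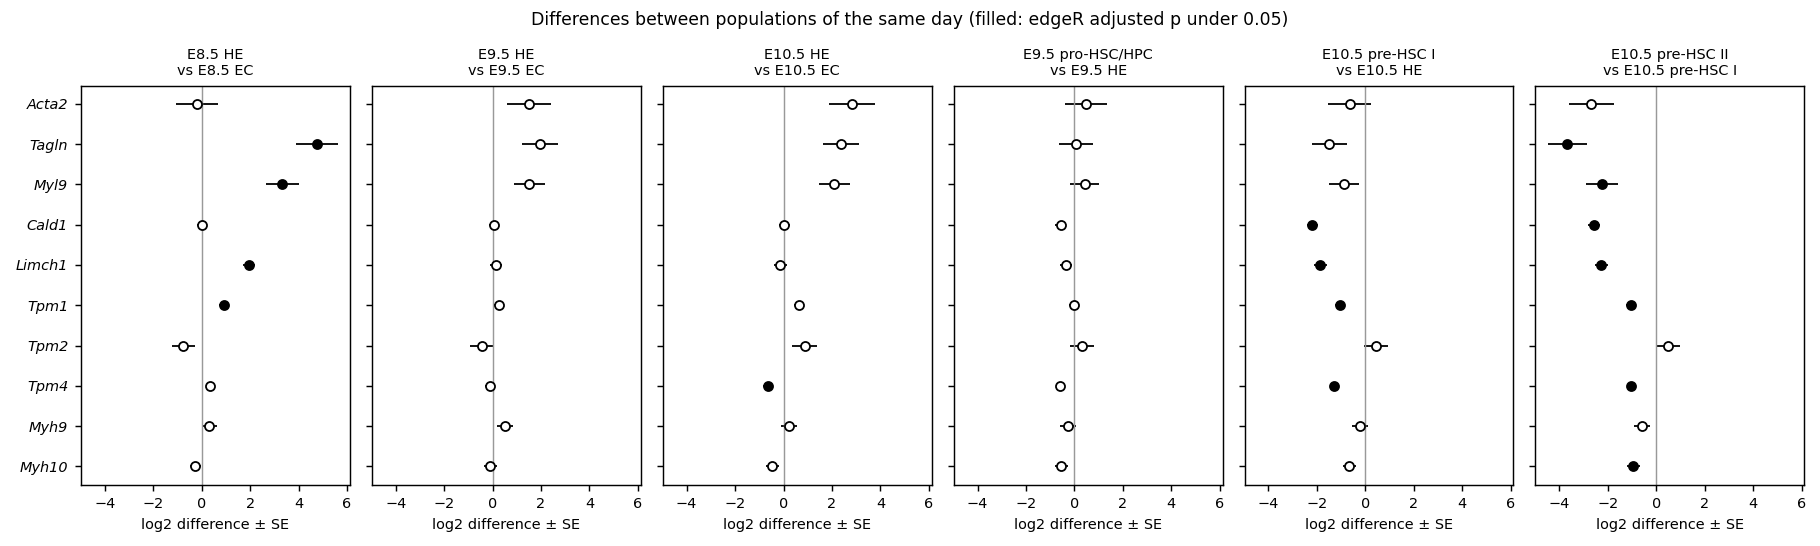
Log2 difference of each of the 10 genes in the 6 comparisons within a day, with standard errors as horizontal lines; filled points passed edgeR's test at an adjusted p under 0.05. Filled points number 4 for E8.5 HE against EC, none for E9.5 HE against EC or pro-HSC/HPC against HE, 1 for E10.5 HE against EC, 4 for pre-HSC I against HE and 7 for the step from pre-HSC I to II.

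At E9.5 none of the 10 members passed edgeR's test between HE and EC, where 0.302% of all genes did, every one as higher. Libraries did not overlap in 3 of the 10, as in 14.4% of all genes. By an unadjusted p under 0.05 there were 2, and DESeq2 called 0. Tagln was at 39.7, 57.7 and 71.5 CPM in EC and 219, 196 and 243 in HE (log2 difference 1.96 ± 0.73 SE, edgeR adjusted p = 0.52). Myl9 was at 19.003, 27.7 and 45.8 CPM in EC and 79.8, 91.7 and 93.9 in HE (log2 difference 1.52 ± 0.63 SE, edgeR adjusted p = 0.64). The libraries of the 2 populations did not overlap in either gene, and both passed in a fit of these 2 populations alone (adjusted p = 0.0023 for Tagln and 0.035 for Myl9). Acta2 was at 16.3, 18.6 and 136 CPM in EC and 194, 98.7 and 193 in HE (1.51 ± 0.90 SE), and the high EC library is the one with the most mesenchyme RNA. The other 7 members differed by -0.45 (Tpm2) to 0.51 (Myh9) on the log2 scale. With the replicate block, where same-numbered libraries again deviate together, 0 members were called and the calls among all genes went from 46 to 168.

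At E10.5 a single member, Tpm4, passed between HE and EC, and it was lower in HE, where 3.48% of all genes were called in either direction, 2.11% as higher and 1.37% as lower. Libraries did not overlap in 3 of the 10, as in 20.4% of all genes. By an unadjusted p under 0.05 there were 5, and DESeq2 called 3. With no filter edgeR called 3 as well, and with the stricter filter or the replicate block 2. Tpm4 was at 1251, 1121 and 1117 CPM in EC and 759, 650.4 and 804 in HE, with no overlap (log2 difference -0.66 ± 0.18 SE, edgeR adjusted p = 0.037). The call was lost when any 1 of the 6 libraries was left out, with log2 differences between -0.72 and -0.57. Myl9 was at 18.1, 22.9 and 21.2 CPM in EC and 127, 46.03 and 93.1 in HE, also without overlap (log2 difference 2.10 ± 0.64 SE, edgeR adjusted p = 0.073), and passed with the stricter filter, with no filter and in the fit of these 2 populations. Tpm1 passed as higher in HE without E10.5 HE replicate 2 (log2 difference 0.85, edgeR adjusted p = 0.029), against 0.65 ± 0.21 SE with all libraries. The log2 differences of the members left, none past the threshold, were 0.87 for Tpm2, 0.24 for Myh9, 0.038 for Cald1, -0.13 for Limch1 and -0.46 for Myh10.

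Acta2 and Tagln turned on 1 E10.5 EC library. Acta2 was at 7.69, 95.2 and 13.5 CPM in EC and 403, 148 and 273 in HE (log2 difference 2.82 ± 0.94 SE, edgeR adjusted p = 0.11). Tagln was at 6.58, 59.3 and 4.57 CPM in EC and 204, 55.9 and 103 in HE (log2 difference 2.37 ± 0.75 SE, edgeR adjusted p = 0.084). The EC library high in both, replicate 2, was also the EC library high in mesenchyme genes, with Col1a1 at 50.6 CPM against 0 and 1.46. Without it, both passed in HE against EC, Acta2 with a log2 difference of 4.70 (adjusted p = 0.018) and Tagln with 4.43 (adjusted p = 0.0013). Without all 4 libraries high in mesenchyme genes the values were 4.33 and 3.85 (adjusted p = 0.017 and 0.0045), and the 2 genes were then the only members called. In the E10.5 HE libraries that remained, 2 and 3, Acta2 was at 148 and 273 CPM, with Myh11 at 0.0491 and 0.439, Cnn1 at 1.57 and 1.67 and Col1a1 at 0.147 and 0.0439. Over all E10.5 HE libraries the smooth muscle list had a mean level of 2.05 (1.48 to 2.92), the highest of the 9 populations. Its sum ran from 66.5 to 285 CPM per library, and its gene Actg2 was called higher in E10.5 than in E9.5 HE. Between E10.5 HE and EC none of the list's 9 tested genes passed (list median 0.75), and no mesenchyme gene did (0.64). Of 6 heart genes Tnni1 passed as higher (list median 1.78), and of 5 pericyte genes Abcc9 as lower. The part of these genes in the members' levels was not tested.

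**Figure D3:**
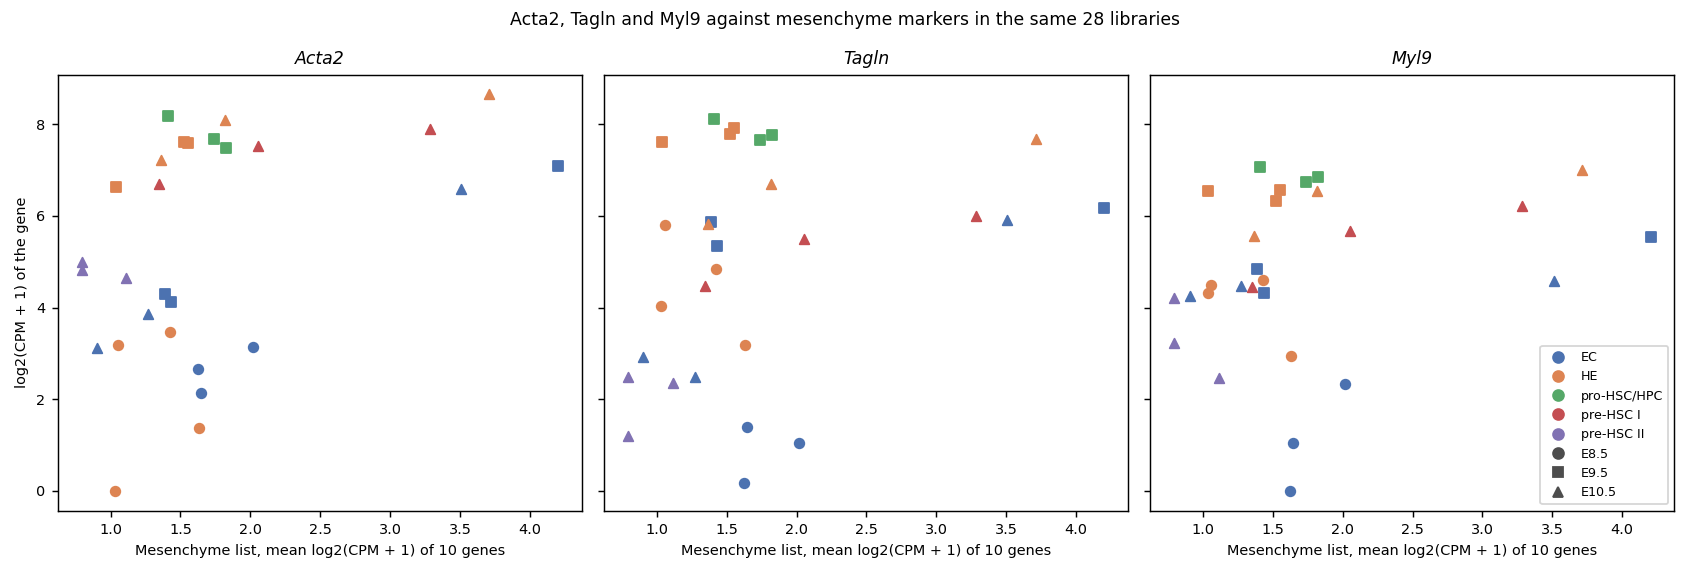
Level of Acta2, Tagln and Myl9 (log2(CPM + 1), vertical) against the mean level of 10 mesenchyme genes (horizontal) in the 28 libraries, with colours for cell type and shapes for day. The 4 libraries above 3 on the horizontal axis include E10.5 HE replicate 1, the highest of all for Acta2 (403 CPM), and E9.5 HE and pro-HSC/HPC, with mesenchyme levels of 1.04 to 1.82, reach up to 291 CPM for Acta2, 277 for Tagln and 134 for Myl9.

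The step from HE to blood was compared on each day. At E9.5 none of the 10 members passed between pro-HSC/HPC and HE, where 0.656% of all genes did (0.505% as higher and 0.151% as lower). Libraries did not overlap in 5 of the 10, as in 14% of all genes. By that test 3 members had an unadjusted p under 0.05, and DESeq2 called 1, Tpm4. Tpm4 was at 993, 1157 and 949 CPM in HE and 648, 789 and 615 in pro-HSC/HPC (log2 difference -0.59 ± 0.18 SE, edgeR adjusted p = 0.19). With the replicate block, also paired by the deviations, Tpm4 passed as lower (-0.60, adjusted p = 0.0019) and the calls among all genes went from 100 to 218. Cald1 was at 329.9, 339 and 355 CPM in HE and 247, 195 and 247 in pro-HSC/HPC, without overlap (log2 difference -0.57 ± 0.23 SE, edgeR adjusted p = 0.49).

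In pro-HSC/HPC, Acta2 was at 205, 291 and 179 CPM, Tagln at 201, 277 and 217 and Myl9 at 106, 134 and 115, and each overlapped or exceeded its range in E9.5 HE. The log2 differences from HE, none past the threshold, were 0.47 ± 0.88 SE, 0.08 ± 0.71 SE and 0.42 ± 0.61 SE. Myh10 was at 297, 193 and 189 CPM in HE and 175, 113 and 177 in pro-HSC/HPC, and Limch1 at 198, 190.2 and 245 and 183, 147 and 164, both without overlap and without a call (-0.54 ± 0.26 SE and -0.36 ± 0.25 SE on the log2 scale). Myh9 differed by -0.25, Tpm2 by 0.32 and Tpm1 by -0.005. Of the smooth muscle markers in pro-HSC/HPC, Myh11 was at 2.47, 0 and 0.186 CPM, Cnn1 at 1.46, 5.001 and 3.34 and Des, the intermediate filament desmin, at 0, 0.833 and 0. The whole smooth muscle list of 10 summed to 48.1 to 76.1 CPM there and to 52.8 to 90.1 in E9.5 HE. None of its 9 tested genes passed between the 2 populations (list median 0.92). The 10 megakaryocyte and platelet genes had mean levels of 2.10 to 3.93 (log2(CPM + 1)) in pro-HSC/HPC against 0.921 to 1.15 in E9.5 HE, with Pf4, a chemokine stored in platelets, at 8.80, 215 and 538 CPM. Their part in the members' levels was not tested.

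At E10.5, 4 of the 10 members fell from HE to pre-HSC I and none rose, where 6.88% of all genes were called, 3.08% as higher and 3.8% as lower. Libraries did not overlap in 5 of the 10, as in 23.4% of all genes. The median log2 difference was -0.97 over the members and 0.01 over all genes. Cald1 fell from 276, 363 and 324 CPM in HE to 66.8, 60.1 and 85.1 in pre-HSC I, a 4.54-fold fall (log2 difference -2.18 ± 0.24 SE, edgeR adjusted p = 3.7e-06). Limch1 fell from 134, 209 and 143 to 48.5, 34.2 and 51.01 CPM (log2 difference -1.86 ± 0.26 SE, edgeR adjusted p = 6.9e-05). Both falls separated every HE library from every pre-HSC I library.

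Of the tropomyosins, Tpm4 and Tpm1 passed and Tpm2 did not. Tpm4 fell from 759, 650.4 and 804 to 377, 266 and 268 CPM (log2 difference -1.28 ± 0.18 SE, edgeR adjusted p = 6.9e-05). Tpm1 fell from 508, 268 and 366 to 204, 193 and 151 (log2 difference -1.06 ± 0.21 SE, edgeR adjusted p = 0.002). Tpm2 was at 29.5, 3.93 and 7.02 CPM in HE and 23.9, 14.6 and 16.6 in pre-HSC I (log2 difference 0.44 ± 0.50 SE, edgeR adjusted p = 0.69). Without HE replicate 1, the library of that population with the high mesenchyme level, it was higher in pre-HSC I by 1.75 (adjusted p = 0.023). Acta2 at 238, 103 and 184 CPM in pre-HSC I and Tagln at 63.1, 21.2 and 44.3 both overlapped HE (-0.65 ± 0.88 SE and -1.50 ± 0.72 SE), as did Myl9 and Myh9 (-0.89 ± 0.62 SE and -0.24 ± 0.33 SE). Myh10 did not overlap, with 161, 200.5 and 179 CPM in HE and 82.8, 126 and 132 in pre-HSC I, and missed the threshold (log2 difference -0.66 ± 0.26 SE, edgeR adjusted p = 0.13).

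From pre-HSC I to pre-HSC II, 7 of the 10 members fell and none rose, where 4.42% of all genes were called, 0.138% as higher and 4.28% as lower. The median log2 difference was -1.64 over the members and 0 over all genes, and libraries did not overlap in 8 of the 10 members, as in 16.7% of all genes. Cald1 was lower again, at 10.6, 13.2 and 12.02 CPM in pre-HSC II, 5.92-fold under pre-HSC I (log2 difference -2.57 ± 0.24 SE, edgeR adjusted p = 6.2e-08). Limch1 was at 9.11, 7.85 and 10.8 CPM (log2 difference -2.27 ± 0.27 SE, edgeR adjusted p = 1.7e-06). Tagln was at 1.30, 4.64 and 4.12 CPM, 12.8-fold under pre-HSC I (log2 difference -3.68 ± 0.80 SE, edgeR adjusted p = 0.0041).

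Tpm4 fell again, to 172, 142 and 134 CPM (log2 difference -1.02 ± 0.18 SE, edgeR adjusted p = 3.4e-04). Tpm1 fell to 84.1, 87.6 and 91.6 (log2 difference -1.06 ± 0.21 SE, edgeR adjusted p = 0.0016). The fit of these 2 populations alone did not call Tpm4 (adjusted p = 0.054) or Myh10 (0.14). Myl9 was at 73.2, 20.9 and 49.8 CPM in pre-HSC I and 17.6, 8.42 and 4.55 in pre-HSC II (log2 difference -2.23 ± 0.65 SE, edgeR adjusted p = 0.045). Myh10 was at 82.8, 126 and 132 CPM in pre-HSC I and 41.3, 62.9 and 73.4 in II (log2 difference -0.94 ± 0.26 SE, edgeR adjusted p = 0.034). Both calls were near the threshold: each was lost in 4 of the 6 fits that left out 1 library, where Myl9 had log2 differences of -2.89 to -1.80 and Myh10 of -1.13 to -0.75. Myl9 kept its call without pre-HSC I replicate 2 or pre-HSC II replicate 1, and Myh10 without pre-HSC I replicate 1 or pre-HSC II replicate 3. Without the libraries high in mesenchyme genes, Myl9 was not called and 6 members remained.

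The other 3 members did not pass from pre-HSC I to pre-HSC II. Acta2 was at 30.9, 27.1 and 24.2 CPM in pre-HSC II, below every pre-HSC I library (log2 difference -2.68 ± 0.94 SE, edgeR adjusted p = 0.14), and passed with no filter (adjusted p = 0.026) and in the fit of these 2 populations (adjusted p = 5.8e-04). Myh9 was at 1090.4, 909 and 654 CPM in pre-HSC I and 819.7, 412 and 529 in II (log2 difference -0.59 ± 0.33 SE, edgeR adjusted p = 0.55). Tpm2 was at 22.6, 32.7 and 21.6 CPM in pre-HSC II, its highest population (log2 difference 0.48 ± 0.50 SE, edgeR adjusted p = 0.92). The endothelial genes fell in these steps as well, 6 of 8 from HE to pre-HSC I and 7 of 8 from pre-HSC I to pre-HSC II. From HE to pre-HSC I the heart gene Myl7 fell, and no smooth muscle gene passed (3 by an unadjusted p under 0.05 and 0 by DESeq2; list median -3.58), no pericyte gene (1 by an unadjusted p under 0.05 and 0 by DESeq2) and no mesenchyme gene (0 by an unadjusted p under 0.05 and 0 by DESeq2; list median -0.71). From pre-HSC I to pre-HSC II the mesenchyme gene Col3a1 fell (list median -2.95), as did Rgs5 of the pericyte list, Smtn of the smooth muscle list and Tnnt2 and Myl4 of the heart list. Col3a1 was at 27.4, 0.904 and 10.8 CPM in pre-HSC I and 0, 0.0813 and 0.0479 in pre-HSC II, and Smtn was at 16.97, 22.3 and 30.8 in pre-HSC I and 8.04, 10.1 and 12.4 in pre-HSC II. The part of these genes in the falls of the members was not tested.

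Between E8.5 and E9.5 the same 3 genes, Acta2, Myl9 and Tagln, were called higher in both HE and EC. In EC the call of Acta2 was lost without E9.5 EC replicate 3, the library highest in mesenchyme genes, or without E8.5 EC replicate 1. In HE these 3 genes were the only members called, 3 of 10 against 6.54% of all genes in either direction, 2.97% as higher and 3.58% as lower. Libraries of the 2 days did not overlap in 5 of the 10, as in 19.8% of all genes. Acta2 went from 0, 1.57, 8.03 and 9.98 CPM in E8.5 HE to 194, 98.7 and 193 in E9.5 HE (log2 difference 5.06 ± 0.93 SE, edgeR adjusted p = 0.0023). Tagln went from 15.4, 8.14, 55.05 and 27.8 to 219, 196 and 243 CPM (log2 difference 3.05 ± 0.69 SE, edgeR adjusted p = 0.0091), and Myl9 from 18.9, 6.68, 21.4 and 23.5 to 79.8, 91.7 and 93.9 (log2 difference 2.33 ± 0.58 SE, edgeR adjusted p = 0.017). No E9.5 HE library overlapped an E8.5 HE library in any of the 3. Without E8.5 HE replicate 3, Myh9 passed too (log2 difference 1.14, edgeR adjusted p = 0.025). Without replicate 4 of E8.5 HE the difference in Acta2 was 5.70, without replicate 3 that in Tagln was 3.68, and the call of Myl9 was lost without replicate 1 of E8.5 or replicate 3 of E9.5 (adjusted p = 0.054 and 0.063). Beside these rises Myh11 was at 1.65, 0 and 0.0469 CPM, Cnn1 at 2.36, 0.131 and 2.67, Des at 0.0472, 0.262 and 0 and Actg2 at 0.0945, 0.436 and 1.27 in the E9.5 HE libraries. The 10 smooth muscle genes had a mean level of 1.35 (log2(CPM + 1)) there against 1.58 in E8.5 HE. Of the 9 tested, none passed by edgeR, with a median log2 difference of 0.39 (5 by an unadjusted p under 0.05 and 2 by DESeq2, the latter Mylk as higher and Smtn as lower). Of 5 pericyte genes 2 passed as higher, Abcc9 (2.95, 3.15, 1.76 and 3.18 CPM at E8.5 and 8.13, 15.4 and 8.16 at E9.5) and Notch3 (2.68, 2.92, 10.6 and 1.70 at E8.5, then 19.3, 9.47 and 16.8). Of 6 heart genes 1 did, Actc1 (0, 0, 0 and 1.66 at E8.5, then 3.97, 22.6 and 23.1), and of 10 mesenchyme genes none (1 by an unadjusted p under 0.05 and 1 by DESeq2). The part of these genes in the rises was not tested. Among the members not called, the log2 differences were 0.93 for Myh9, 0.26 for Myh10, 0.16 for Limch1, 0.0025 for Cald1, -0.091 for Tpm1, -0.42 for Tpm4 and -0.68 for Tpm2.

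In EC, 4 of the 10 members rose from E8.5 to E9.5 and none fell, in a comparison that called 19.7% of all genes in either direction, 10.1% as higher and 9.56% as lower. Libraries did not overlap in 7 of the 10, as in 37% of all genes. Tagln went from 1.61, 1.06 and 0.125 to 39.7, 57.7 and 71.5 CPM (log2 difference 5.83 ± 0.91 SE, edgeR adjusted p = 9.2e-05). Myl9 went from 1.05, 4.003 and 0 to 19.003, 27.7 and 45.8 (log2 difference 4.13 ± 0.72 SE, edgeR adjusted p = 2.9e-04). Limch1 went from 31.99, 62.4 and 51.1 to 213, 166 and 200.1 (log2 difference 1.99 ± 0.26 SE, edgeR adjusted p = 1.1e-05). Acta2, from 3.38, 7.85 and 5.33 to 16.3, 18.6 and 136 (log2 difference 3.37 ± 0.98 SE, edgeR adjusted p = 0.016), lost its call without E9.5 EC replicate 3, the library highest in mesenchyme genes, when the difference was 1.67 (adjusted p = 0.24), and without E8.5 EC replicate 1 (adjusted p = 0.073). The difference in Tagln was 6.44 without E8.5 EC replicate 1 and that in Myl9 5.73 without replicate 2. Other cell type markers moved in this comparison too. Of 10 mesenchyme genes 3 passed as higher, Col3a1, Lum and Postn (list median 1.80), with Col3a1 at 1.81, 1.41 and 5.39 CPM in E8.5 EC and 18.1, 14.7 and 107 in E9.5 EC. Of 9 smooth muscle genes Mylk passed as higher (list median 1.23), of 5 pericyte genes Abcc9 and Notch3 as higher and Anpep as lower, and of 6 heart genes Actc1 as higher and Myl7 as lower. Their part in the members' rises was not tested beyond the values given without E9.5 EC replicate 3. Among the members not called, the log2 differences were 0.74 for Myh9, 0.53 for Tpm1, 0.096 for Myh10, 0.057 for Tpm4, -0.047 for Cald1 and -0.99 for Tpm2. The comparisons of HE with EC at E8.5 and of EC between days share the E8.5 EC libraries.

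No member passed between E9.5 and E10.5, in HE (where 3.64% of all genes were called, 1.49% as higher and 2.15% as lower) or in EC (0.761%, with 0.308% as higher and 0.453% as lower). In HE 2 members had an unadjusted p under 0.05 and DESeq2 called 0; in EC the counts were 1 and 1, the latter Tpm1. Tpm1 was at 468, 439 and 372 CPM in E9.5 EC and 208, 276 and 242 in E10.5 EC (log2 difference -0.82 ± 0.21 SE, edgeR adjusted p = 0.064). Tpm4 was at 993, 1157 and 949 CPM in E9.5 HE and 759, 650.4 and 804 in E10.5 HE (log2 difference -0.49 ± 0.18 SE, edgeR adjusted p = 0.14), the 1 member of 10 without overlap in HE, against 25.2% of all genes. In EC that member was Tpm1, against 19.7%. Acta2 differed by 0.76 ± 0.88 SE in HE and -0.56 ± 0.89 SE in EC, and Tagln by -0.86 ± 0.71 SE and -1.26 ± 0.72 SE. The log2 differences of the others in HE were 0.90 for Tpm2, 0.0019 for Myl9, -0.090 for Cald1, -0.33 for Myh10, -0.39 for Limch1, -0.44 for Tpm1 and -0.59 for Myh9. In EC they were 0.046 for Tpm4, 0.033 for Myh10, -0.070 for Cald1, -0.13 for Limch1, -0.32 for Myh9, -0.42 for Tpm2 and -0.57 for Myl9. Of 9 smooth muscle genes tested in HE between these days, Actg2 passed as higher (list median 0.75), and DESeq2 called 0. Of 10 mesenchyme genes none passed by edgeR (list median 1.54), with 4 by an unadjusted p under 0.05 and 1 by DESeq2.

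Whether the HE-EC difference itself changed from E8.5 to E10.5 was tested as a difference of differences. Of the 10 members 2 passed, both towards lower values in HE, where 2.99% of all genes passed in either direction, 0.879% towards higher and 2.11% towards lower. For Limch1 the difference went from 1.96 at E8.5 to -0.13 at E10.5, a change of -2.09 ± 0.35 SE (edgeR adjusted p = 6.1e-04), and its level in EC went from 48.5 to 177 CPM while HE went from 189 to 162. For Tpm4 the difference went from 0.36 to -0.66, a change of -1.01 ± 0.24 SE (edgeR adjusted p = 0.018). The call of Tpm4 was lost without E10.5 HE replicate 2 (adjusted p = 0.06), with no filter (0.058) and in the fit of these 4 populations (0.051). The changes for Tagln (-2.39 ± 1.06 SE), Myl9 (-1.23 ± 0.88 SE), Tpm2 (1.63 ± 0.69 SE), Tpm1 (-0.25), Myh10 (-0.20), Myh9 (-0.086) and Cald1 (0.029) did not pass. Acta2 had a change of 3.01 ± 1.25 SE (adjusted p = 0.24) and passed without E10.5 EC replicate 2 (a change of 4.88, adjusted p = 0.039) and without the 4 libraries high in mesenchyme genes (4.51, adjusted p = 0.041).

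The step from HE to blood was also set against itself on the 2 days, pre-HSC I minus HE at E10.5 less pro-HSC/HPC minus HE at E9.5. Cald1 was the 1 member of 10 that passed, where 0.0722% of all genes did, 0.0328% towards higher and 0.0394% towards lower values. Its log2 difference was -2.18 at E10.5 and -0.57 at E9.5, a change of -1.61 ± 0.32 SE (edgeR adjusted p = 0.044). The call was lost in 10 of the 12 fits without 1 library, with log2 values of -1.77 to -1.51, and without the libraries high in mesenchyme genes (-1.66, adjusted p = 0.054). It was kept without E10.5 HE replicate 1 and without pre-HSC I replicate 1. Without pro-HSC/HPC replicates 2 and 3, rich in hemoglobin reads, the change was -1.72 (adjusted p = 0.24), where that population is left with 1 library, assumed to vary like the others, so that the lost call says nothing of those reads. Limch1 (-1.50 ± 0.36 SE, adjusted p = 0.083) and Tpm1 (-1.06 ± 0.29 SE, adjusted p = 0.15) did not pass. With the replicate block, paired in all 3 pairs for the E9.5 arm and in 2 of 3 for the E10.5 arm, 4 members passed: Cald1 (-1.60, adjusted p = 4.7e-04), Limch1 (-1.50, 0.0096), Tpm1 (-1.05, 0.03) and Tpm4 (-0.70, 0.008), and the calls among all genes went from 11 to 527. Without the block, the other 7 members, none of which passed, had changes of -0.69 ± 0.25 SE (Tpm4), -1.57 (Tagln), -1.30 (Myl9), -1.12 (Acta2), -0.12 (Myh10), 0.0066 (Myh9) and 0.12 (Tpm2). The pro-HSC/HPC and pre-HSC I populations differ in day, in tissue label and in name, and these cannot be told apart.

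Shares among related genes were computed from levels per length. The tropomyosin gene Tpm3, which is not a member, was left out, so the tropomyosin shares are not those of the whole family. Tpm4 made up 87.96 ± 2.15% of the summed RPKM of Tpm1, Tpm2 and Tpm4 in E10.5 EC, its highest share, and 75.1 ± 5.36% in E10.5 HE. Pre-HSC I had 70.3 ± 2.96%, pre-HSC II 67.4 ± 3.82% and pro-HSC/HPC 67.3 ± 2.30%. The share of Tpm1 was 11.7 ± 1.998% in E10.5 EC and 24.1 ± 4.59% in E10.5 HE, and highest in pro-HSC/HPC, at 32.1 ± 2.20%. Tpm2 held 0.338 ± 0.113% in E9.5 HE and at most 0.963 ± 0.214% on average in the EC and HE populations, and held on average 2.65 ± 0.310% (pre-HSC I) and 7.29 ± 1.85% (pre-HSC II). Each pre-HSC II library was above every other library in this share, with 5.905% as the lowest against 2.87% as the highest elsewhere. These shares are a description and were not tested.

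Of the 2 heavy chains, Myh10 made up 25.2 ± 3.96% in E8.5 EC, 12.1 ± 2.61% in E9.5 HE, 9.98 ± 1.48% in pro-HSC/HPC, and least, 9.67 ± 4.43%, in pre-HSC II. At E10.5 its share varied widely within a population, from 10.8% to 30.4% in EC and from 8.34% to 22.6% in HE. Acta2 stayed a small part of actin RNA throughout: of the summed RPKM of Acta2, Actb and Actg1 it held 0.0151 ± 0.0143% in E8.5 HE and 0.752 ± 0.191% in E10.5 HE.

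**Figure D4:**
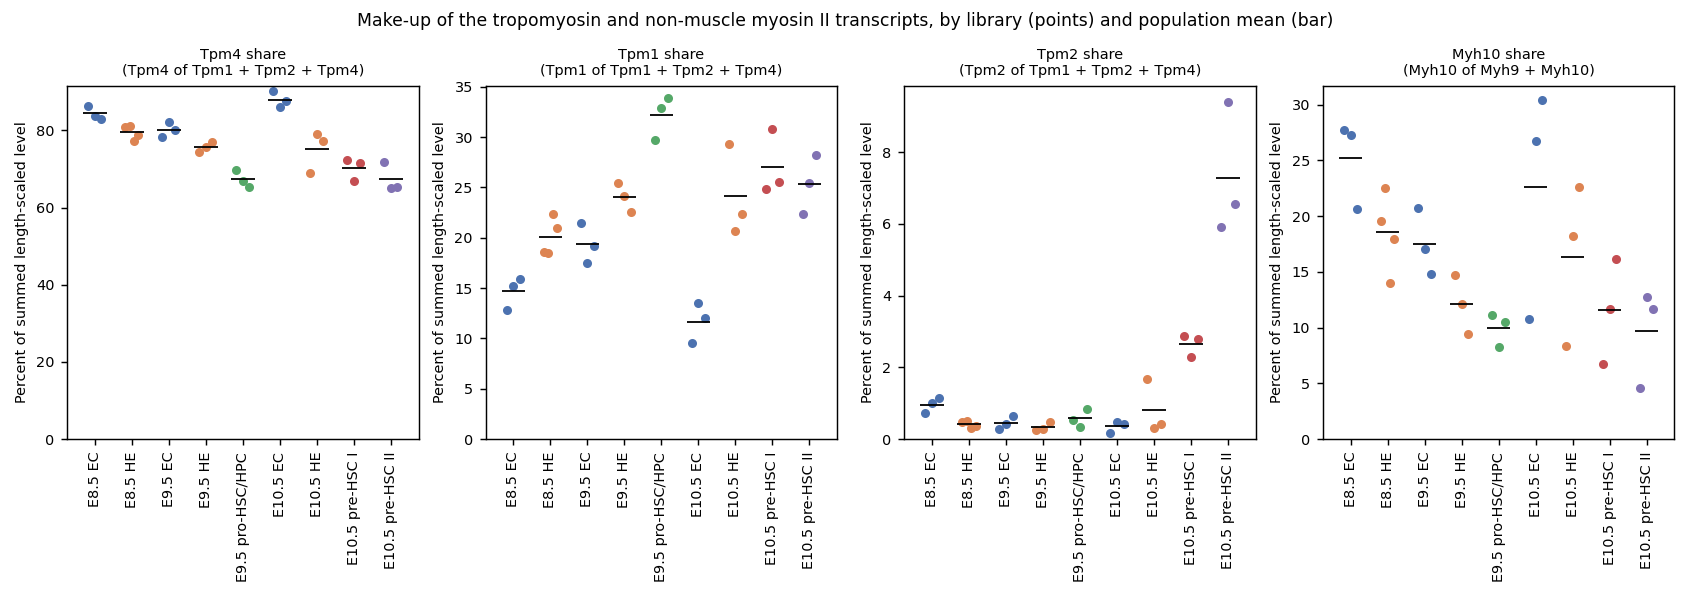
Share of Tpm4, Tpm1 and Tpm2 in the summed length-scaled level of these 3 tropomyosin genes, without Tpm3, in percent. The last panel gives the share of Myh10 in that of Myh9 and Myh10. Points are libraries and bars are population means. Each panel starts at 0 and has its own scale. The Tpm2 share is above 5% in the 3 pre-HSC II libraries alone, and the Tpm4 share is highest in E10.5 EC.

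The wider machinery was followed in 3 lists of genes around the members. Of 18 genes for non-muscle actin, light chains and filament binding, 17 were tested: 7 were higher in E8.5 HE than in EC (5.08% of all genes were) and none lower, 5 fell (3.8% of all genes) and none rose from E10.5 HE to pre-HSC I, and none passed from pre-HSC I to pre-HSC II by edgeR (6 by an unadjusted p under 0.05 and 2 by DESeq2). Zyx, which encodes zyxin of focal adhesions, rose at E8.5 from 29.004, 32.6 and 33.8 CPM in EC to 73.4, 87.2, 93.4 and 75.1 in HE (log2 difference 1.37 ± 0.18 SE, edgeR adjusted p = 1.6e-05). Cnn2, a calponin of non-muscle cells, went from 239, 212 and 221 to 669.7, 506, 687 and 549.9 (log2 difference 1.43 ± 0.25 SE, edgeR adjusted p = 6.0e-04). Vcl, which encodes vinculin, was higher by 1.55 on the log2 scale. From HE to pre-HSC I, Cnn2 fell by 1.13 on the log2 scale, and the light chain genes Myl12a and Myl12b, close paralogs of Myl9, by 0.90 and 0.87. From E8.5 to E9.5, 8 of the 17 rose in EC, where 10.1% of all genes did, and 1, the tropomyosin gene Tpm3, named after its value was seen, fell (-0.64), and in HE 2 rose (Svil and Actb, against 2.97% of all genes) and Tpm3 fell (-0.85). The list's median was 0.59 in E8.5 HE against EC and -0.51 in pre-HSC I against HE.

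Among 25 genes of RhoA, the ROCK kinases and the myosin phosphatase, all tested, none passed edgeR's test between HE and EC at E8.5 (6 by an unadjusted p under 0.05 and 3 by DESeq2), E9.5 (0 by an unadjusted p under 0.05 and 0 by DESeq2) or E10.5 (0 by an unadjusted p under 0.05 and 0 by DESeq2), or between pro-HSC/HPC and HE (1 by an unadjusted p under 0.05 and 0 by DESeq2). From E10.5 HE to pre-HSC I 3 fell, against 3.8% of all genes, and the same 3 fell again to pre-HSC II, against 4.28%: Rhoc and Rhob, small GTPases related to RhoA, and Arhgef12, an exchange factor that activates RhoA. Rhoc went from 241, 151 and 184 CPM (HE) through 126, 47.03 and 82.1 (pre-HSC I) to 24.8, 22.97 and 13.7 (pre-HSC II) (-1.17 and -2.05 on the log2 scale, edgeR adjusted p = 0.011 and 2.8e-05). Arhgef12 went from 61.5, 83.6 and 84.02 through 30.4, 49.98 and 40.2 to 10.3, 9.03 and 12.7 CPM (-0.93 and -1.91, adjusted p = 0.022 and 1.2e-05). In EC from E8.5 to E9.5, 6 of the 25 rose, against 10.1% of all genes, with Diap2, Rock2 and Arhgef12 first by p, and Cfl1, the actin-severing protein cofilin, fell. In HE Cfl1 fell over the same days (-1.002), and from E9.5 to E10.5 the phosphatase inhibitor gene Ppp1r14b fell (-1.71).

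Of 17 genes for SRF, its cofactors and targets, 16 were tested: 3 were higher and none lower in E8.5 HE than in EC (5.08% of all genes were higher), 6 fell from E10.5 HE to pre-HSC I (3.8% of all genes) and 4 from pre-HSC I to pre-HSC II (4.28%). Tgfb1i1, an adaptor of focal adhesions, was at 2.34, 6.40 and 8.77 CPM in E8.5 EC, 56.3, 33.1, 82.8 and 36.9 in E8.5 HE and 1.38, 0.651 and 1.10 in pre-HSC II (log2 difference 3.17 ± 0.40 SE, edgeR adjusted p = 7.1e-06 for HE against EC, and -4.46 with adjusted p = 1.6e-07 for the step from pre-HSC I to II). Cyr61, a matricellular protein, went from 118, 137 and 119.6 CPM (E10.5 HE) through 41.4, 39.5 and 25.9 (pre-HSC I) to 0.995, 2.93 and 1.29 (pre-HSC II) (-1.81 and -4.35, edgeR adjusted p = 0.0016 and 5.7e-08). Elk3, an ETS factor that partners SRF, fell in both steps (-1.34 and -0.78). From E8.5 to E9.5 in EC 5 rose, against 10.1% of all genes, and 2 fell, against 9.56% (Cyr61, and Fhl1, named after its value was seen), and from E9.5 to E10.5 in HE Mkl2, a cofactor of SRF, and the early growth response gene Egr1 rose (1.28 and 2.91). None passed edgeR's test from E8.5 to E9.5 in HE (5 by an unadjusted p under 0.05 and 0 by DESeq2), or between HE and EC at E9.5 (3 by an unadjusted p under 0.05 and 0 by DESeq2) or E10.5 (4 by an unadjusted p under 0.05 and 1 by DESeq2).

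The level of each pair of members was compared across the 28 libraries on the log2(CPM + 1) scale, as a description, since libraries of a population share their source. Tagln and Myl9 had a Pearson r of 0.91, Cald1 and Tpm4 one of 0.94, and Cald1 and Myh10 one of 0.90. Between the first pair and the genes Cald1, Tpm4 and Myh10 the values were lower, at most 0.35 (Tagln and Cald1). Tagln had 0.61 with Limch1 and 0.58 with Tpm1, and Acta2 had 0.73 with Tagln, 0.77 with Myl9 and -0.10 with Cald1. Tpm2 had negative values with each of the other 9 members, from -0.70 with Limch1 to -0.13 with Acta2. Likeness was ranked among 9245 tested genes averaging 10 CPM or more in 1 population, with unnamed gene models and small RNAs left out. Those most like Acta2 were Actc1 (r = 0.86), Tmem26 (0.86), Pam (0.86) and Stmn2 (0.85). Actc1 is the cardiac actin gene with which Acta2 shares long near-identical stretches. Among those most like Limch1 were Npr1 (0.95), the VEGF receptor gene Flt1 (0.95) and Mcam (0.95). Tpm4 was followed most closely by Flt4, another VEGF receptor gene (0.98), Tnfaip1 (0.98), Enc1 (0.98) and Tmem88 (0.97), and Myh9 by Actb, cytoplasmic beta-actin (0.90), Fhl3 (0.85), Nck2 (0.84) and Arf6 (0.84).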

How the data were processed

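Each library held polyadenylated RNA of 100 sorted cells, made with the SMARTer Ultra Low Input method as the labels' protocols state. The deposited table holds raw read counts per gene, made by the authors with TopHat, SAMtools, Subread and featureCounts 1.6.2 on mm9, per the submitters' processing notes; no source used here gives the strand setting, the handling of reads with several matches or the litters of the replicates, so p-values measure the spread between these libraries.

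All 28 libraries were fitted together in R 4.3.3 with edgeR 4.0.16 (quasi-likelihood, TMM scaling, filterByExpr with a minimum count of 10, 1 coefficient per population), with Benjamini-Hochberg adjustment over the 15238 genes tested of 24015, of which 2723 had no count. CPM were scaled by the TMM factors (0.789 to 1.25), and RPKM divide them by the table's exon length. The common biological coefficient of variation was 0.563. Tests on simulated counts of 15238 genes for E8.5 HE against EC recovered 20% of 2-fold, 96% of 4-fold and 98% of 8-fold changes, with 7 false calls among 164. The changed genes averaged at least 10 CPM, and their spread was taken from the trend over all genes. For genes that are lower or vary more than this trend, these rates do not apply. Replicates were distinct libraries (chi-square per degree of freedom 40.3 to 209).

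Deviations from the population means of same-numbered libraries were correlated above 0.1 in all 3 pairs for E8.5 HE and EC (0.17 to 0.22), E9.5 HE and EC (0.11 to 0.28) and pro-HSC/HPC and HE (0.13 to 0.34), so the blocked values stand beside those results where a call or count moved. The alternatives were DESeq2 1.42.0, other size factors (RLE), no filter, a stricter filter (10 CPM in 3 libraries), the replicate block, a fit of only the populations compared, each replicate left out, the hemoglobin-rich pro-HSC/HPC replicates 2 and 3 left out and, chosen after seeing the data, the 4 libraries high in mesenchyme genes left out.

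The members, gene lists and comparisons were chosen with earlier results of these data known. The naming rule took every member in each comparison, and of each list up to 4 genes by the smallest p among those called, with the defining markers of smooth muscle, pericytes, mesenchyme, heart and platelets. For Acta2, Limch1, Tpm4 and Myh9 the 4 genes with the highest correlation were named, among 9245 tested genes averaging 10 CPM or more in 1 population. Some genes that these rules name are not reported here.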

Additional observations from a re-analysis of the deposited data

Results flagged for a closer look

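A test of the difference between 2 contrasts singled out 3 results. The HE-EC difference of Limch1 changed by -2.09 on the log2 scale from E8.5 to E10.5, with levels of 31.99, 62.4 and 51.1 CPM in E8.5 EC and 118, 184 and 228 in E10.5 EC, against means in HE of 189 and 162 CPM. The HE-EC difference of Tpm4 changed by -1.01 over the same days, and there the HE mean went from 1385 to 738 CPM while the EC mean was 1083 and 1163. The step from HE to blood differed between E10.5 and E9.5 by -1.61 for Cald1. The call of Cald1 was lost in most fits without 1 library and without the libraries high in mesenchyme genes. That of Tpm4 was lost with no filter and in the fit of its 4 populations. In E8.5 HE, the population with 4 libraries, no library of the 10 members passed Dixon's criterion for a value apart from the rest. Myh9 was at 728, 660.1, 1161 and 752 CPM there, with replicate 3 the highest and only just under that criterion. Without that library, Myh9 was called higher in E9.5 than in E8.5 HE.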

How the results depend on the processing

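No member's difference changed sign with a call under any alternative. Of 120 differences (10 members in 12 comparisons), 112 kept their side of the threshold with DESeq2 and 8 were gained; with RLE 119 and 1 lost; with no filter 113, 2 lost and 5 gained; with the stricter filter 116 and 4 gained; with the replicate block 112 and 8 gained; in fits of only the populations compared 109, 5 lost and 6 gained. Leaving out 1 library kept 835 of 870, with 29 lost and 6 gained. Without the libraries high in mesenchyme genes 82 of 90 were kept, 4 lost and 4 gained, and without the hemoglobin-rich ones 19 of 20, with 1 lost.

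Counts of members called moved as follows. For E10.5 HE against EC, 1 became 3 with DESeq2, 3 with no filter, 2 with the stricter filter, 2 with the replicate block and 2 without the libraries high in mesenchyme genes. For E9.5 HE against EC, 0 became 2 in the fit of those populations. For pro-HSC/HPC against HE, 0 became 1 with DESeq2 and 1 with the block. For E10.5 against E9.5 EC, 0 became 1 with DESeq2 and 1 with the stricter filter. For the change of the HE-EC difference, 2 became 1 with no filter and 1 in the fit of those populations. For the blood step at E10.5 less E9.5, 1 became 3 with DESeq2, 0 with RLE, 4 with the replicate block, and 0 without the mesenchyme-high or the hemoglobin-rich libraries.

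Counts over all genes moved too. With DESeq2, 1038 calls for E8.5 HE against EC became 1698, 46 for E9.5 HE against EC 169, 530 for E10.5 HE against EC 945, 100 for pro-HSC/HPC against HE 218, 1049 for pre-HSC I against HE 1587, 997 for HE from E8.5 to E9.5 1735, 555 for HE from E9.5 to E10.5 1055, 116 for EC from E9.5 to E10.5 418, 455 for the change of the HE-EC difference 794 and 11 for the blood step 193. With no filter they were 100 for E9.5 HE against EC, 155 for pro-HSC/HPC and 30 for the blood step; with the stricter filter 70 for E9.5 HE against EC, 184 for EC from E9.5 to E10.5 and 47 for the blood step. In fits of only the populations compared they were 153 for E8.5 HE against EC, 136 for E9.5 HE against EC, 196 for pro-HSC/HPC, 409 and 865 for HE between days, 227 for the HE-EC change and 89 for the blood step. With the replicate block they were 2193, 168 and 1316 for HE against EC by day, 218 for pro-HSC/HPC, 2327 for pre-HSC I against HE, 917 for the HE-EC change and 527 for the blood step. In the comparisons within E10.5 and between days at most 2 of 3 pairs were above 0.1. By this cut alone the numbers were not taken to pair the libraries. Replicate 1 had the lowest Myh10 share of each E10.5 population: EC 10.8%, HE 8.34%, pre-HSC I 6.76%, pre-HSC II 4.59%. Its TMM factor was also the lowest of each, from 0.924 to 0.987. Whether same-numbered E10.5 libraries share a source was not tested. The main fits do not account for such pairing. Within E10.5 the pairs compared were all positive (lowest 0.082 for HE and EC, 0.085 for pre-HSC I and HE, 0.038 for pre-HSC II and I), and those of EC and pre-HSC I, which were not compared, lay between 0.14 and 0.41. Without the mesenchyme-high libraries they were 25 for E9.5 HE against EC, 1898 of 2999 and 6 of 116 for EC between days, 300 for the HE-EC change and 53 for the blood step; without the hemoglobin-rich ones 24 for pro-HSC/HPC and 3 for the blood step.

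With each replicate left out, members called and calls over all genes ranged from 4 to 4 and 573 to 1367 for E8.5 HE against EC, 0 to 0 and 11 to 38 for E9.5, 0 to 2 and 302 to 465 for E10.5, 0 to 0 and 51 to 90 for pro-HSC/HPC, 4 to 5 and 520 to 1114 for pre-HSC I, 5 to 6 and 471 to 625 for pre-HSC II, 2 to 4 and 267 to 1531 for HE to E9.5, 0 to 0 and 222 to 498 for HE to E10.5, 3 to 4 and 1764 to 2989 for EC to E9.5, 0 to 0 and 27 to 127 for EC to E10.5, 1 to 3 and 321 to 525 for the HE-EC change, and 0 to 1 and 3 to 71 for the blood step. Tagln, Myl9 and Acta2 each had an E8.5 library with 0 to 2 counts, below the level of 3 counts, where a value cannot be told from 0 at this depth. The cause of these movements was not tested.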

Other observations

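Srf, the gene of the factor itself, was at 11.3, 8.65 and 7.77 CPM in E10.5 HE, 17.6, 16.3 and 18.8 in E9.5 HE and 15.6, 16.3 and 14.6 in pre-HSC II, with no call between E9.5 and E10.5 HE (log2 difference -0.92 ± 0.35 SE, edgeR adjusted p = 0.15); it is named here after its values were seen. Mkl2 was at 247, 340.00 and 271 CPM in E10.5 HE, 126, 132 and 96.8 in E9.5 HE and 142, 149.7 and 130.1 in pre-HSC I (log2 difference -1.02 ± 0.30 SE, edgeR adjusted p = 0.039). Zyx, which was among the genes higher in E8.5 HE, was at 75.2, 91.9 and 89.4 CPM in pre-HSC I and 101, 88.03 and 119 in pre-HSC II, where Cald1 and Limch1 had fallen.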
